A study of Mus musculus with 41 samples.

Results

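Healing of surgical skin wounds without an implant was followed by comparing the sham controls at 6 weeks with the sham controls at 1 week. The comparison used 13 of the 41 mice of the study, 7 at 1 week and 6 at 6 weeks, chosen by their labelled treatment and time point, and described each of the 54 mouse target genes with a qPCR assay. All 13 were female NSG mice, and the tissue was skin taken after a sham operation. The other 28 mice had received the electrospun nanofibre mesh called P, alone or seeded with human endometrial mesenchymal stem cells (P+eMSC), at the same time points.

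NSG mice lack mature T, B and natural killer cells, so the inflammatory genes of these wounds were read in a host whose innate cells, chiefly macrophages and granulocytes, remain. In the mesh groups the operation was an incision of the lower abdominal skin with pockets under it. What the sham operation left out, and the age of the mice, were not given in the sources used here. Some animals of the study had also served in earlier work, and which of them were sham controls was not stated. Each mouse belonged to 1 week, so the time course compares different animals, and no unoperated skin was analysed here. In bulk tissue, fewer cells of a type and less RNA per cell cannot be told apart.

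Skin repair passes from an inflammatory phase, in which chemokines draw neutrophils and monocytes into the wound, to a phase of new vessels and matrix, and then to slow remodelling of the scar. Transforming growth factor beta drives fibroblasts to make collagen, and metalloproteinases and their tissue inhibitors set how fast that collagen is turned over. Resident and recruited macrophages shift over the same period between states marked by *Nos2* and by *Arg1* and *Mrc1*.

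Each level was the Ct of 18S ribosomal RNA (*Rn18s*) minus the Ct of the gene in the same mouse. It is a log2 scale on which a higher value means more transcript. Levels of different assays were set against each other as within-mouse differences of gene pairs, whose size alone has no meaning. Levels were also combined over assays within a mouse, as the panel median, the panel mean and the mean of each gene list. The Ct of 18S had a median of 6.76 at 1 week, from 6.53 to 7.44, and a median of 6.60 at 6 weeks, from 6.26 to 6.83. Its shift was -0.17 cycles (exact two-sided Mann-Whitney p = 0.366). A Ct was obtained in 378 of 378 measurements at 1 week. At 6 weeks 1 of 324 was undetected, *Il10* in mouse 123, which was left out of the values for that gene. The collagen genes of dermal fibroblasts and *Cdh1*, the cadherin of epithelial cells, had a Ct in each of the 13 mice, although *Cdh1* differed widely between them. No marker of muscle, fat or nerve was among the genes analysed here. The labels give each mouse a number, below 1000 in 9 mice and above 2000 in 4 mice (2 of 7 at 1 week and 2 of 6 at 6 weeks).

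No gene differed between the weeks at an adjusted p below 0.05. In exact Mann-Whitney tests (two-sided, Benjamini-Hochberg adjusted) 0 of the 54 target genes (0%) were called and the lowest adjusted p was 0.901. At the unadjusted threshold of the study's statistics section 2 genes (3.7%) were called, *Tgfb2* and *Tgfb3*, both higher at 6 weeks, and the same 2 had an unadjusted p below 0.05. No gene had weeks that did not overlap (0%). With 7 against 6 mice the smallest exact p is 0.00117. With 1 gene alone at that p its adjusted p would be 0.0629, so 1 gene alone could not be called.

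The sizes are given as the Hodges-Lehmann shift, the median of the differences between each mouse at 6 weeks and each at 1 week, with an exact interval of at least 95% confidence. Of the shifts 44 were above 0 and 10 were below, from -0.90 for *Il1b* to 1.45 for *Cxcl10*, with a median of 0.51, or 1.42-fold higher at 6 weeks. With each mouse's panel median, not 18S, as the reference, 20 shifts lay above 0 and 34 below, with a median of -0.19, so the direction over the panel depended on the reference. The shifts then lay between -1.50 for *Ccl4* and 0.56 for *Cxcl10*, with -1.30 for *Il1b*. With 1 mouse left out the median against 18S lay between 0.33 (without mouse 120) and 0.84 (without mouse 2269). The intervals were wide, with a median width of 4.22 on the log2 scale. A difference of 4-fold upward, a shift of 2, lay inside the interval of 45 genes, and 4-fold downward lay inside that of 22. Only 6 genes had an interval between -2 and 2, and in the others a 4-fold difference in at least 1 direction lay inside the interval.

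**Figure D1:**
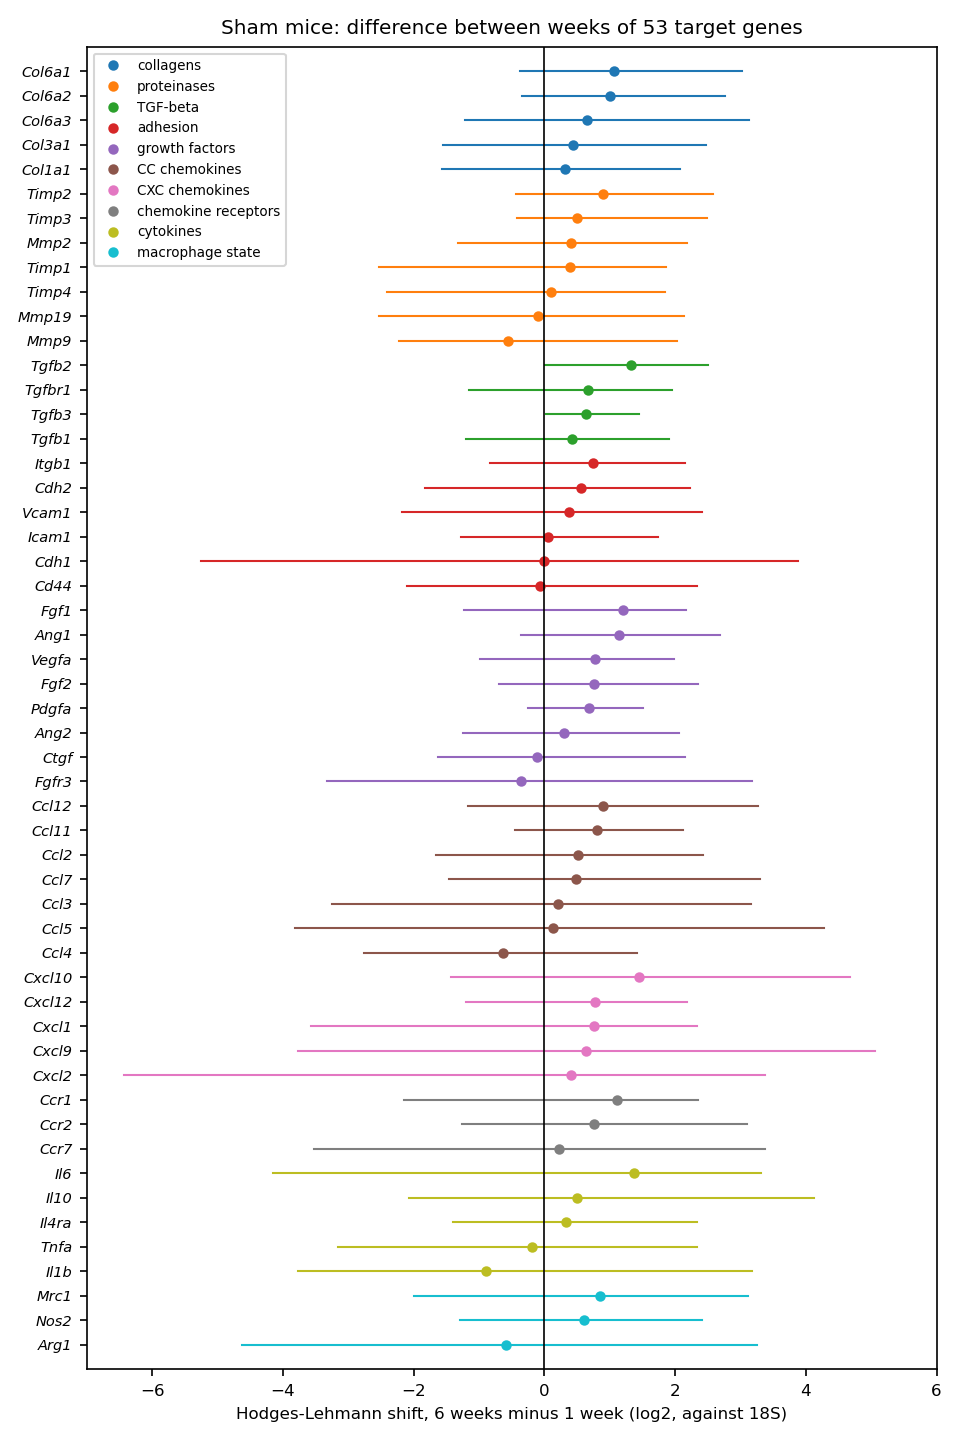
Shift of 53 target genes between the sham mice at 1 week and at 6 weeks (points, log2 difference against 18S, 6 weeks minus 1 week) with its exact interval (lines), coloured by gene list. The points run from -0.90 for *Il1b* to 1.45 for *Cxcl10*, and the intervals of *Tgfb2* and *Tgfb3* lie just above 0.

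The transforming growth factor beta genes were the list with the lowest p-values. *Tgfb2*, which encodes a ligand of the family, lay at -11.81, -10.52 and -8.91 (lowest, median and highest mouse) at 1 week and at -10.01, -9.24 and -8.96 at 6 weeks. All 6 mice at 6 weeks stood above the median of week 1, while mouse 2269 at 1 week stood above all of them. The shift was 1.32 (interval 0.01 to 2.50), or 2.50-fold, with an exact p of 0.035 and an adjusted p of 0.901 by the Mann-Whitney U test. Without mouse 2269 the weeks of *Tgfb2* did not overlap, the shift was 1.53, the exact p was 0.00216 and the adjusted p was 0.117. Without any 1 of the other 6 mice of week 1 the exact p was 0.0649, so the unadjusted call did not hold there. By limma the p of *Tgfb2* was 0.0511 before adjustment, above 0.05 but under the unadjusted threshold of the study. With the panel median as the reference the shift was 0.55 (exact p = 0.138). Within the mice numbered below 1000 the shift was 1.34 in 5 against 4 mice, and within those above 2000 it was 0.93 in 2 against 2 mice. Mouse 2269 is among those above 2000, so the value of 1.34 is not separate from the result without that mouse.

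*Tgfb3*, the ligand tied to repair with less scar, lay at -9.64, -8.48 and -7.93 at 1 week and at -8.94, -8.05 and -7.21 at 6 weeks. Of the 6 mice at 6 weeks, 3 lay inside the range of week 1 and the others above it. The shift was 0.64 (interval 0.02 to 1.44; exact p = 0.035, adjusted p = 0.901). Against the panel median it was 0.22. With 1 mouse left out the exact p lay between 0.0101 and 0.0732, and by limma it was 0.223 before adjustment. *Tgfbr1*, the type I receptor of the family, lay at -11.49, -9.84 and -7.80 at 1 week and at -10.57, -9.31 and -8.96 at 6 weeks. The range of week 6 was contained in that of week 1, and the shift was 0.66 (exact p = 0.445), against -0.05 with the panel median as reference. *Tgfb1* had a shift of 0.43 (exact p = 0.628). Shifts were above 0 in 4 of 4 genes with a median of 0.65, beside 0.51 over the 54 genes, and in 2 of 4 with a median of 0.08 against the panel median.

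Type VI collagen genes had the largest shifts among the collagens. *Col6a1*, a chain of the beaded microfibrils around cells, lay at -10.37, -8.01 and -4.88 at 1 week and at -7.80, -6.95 and -5.09 at 6 weeks. Its 6 mice at 6 weeks stood above the median of week 1 and inside its range. The shift was 1.06 (interval -0.38 to 3.02), or 2.09-fold (exact p = 0.101). *Col6a2*, a partner chain in the same microfibrils, lay at -11.32, -9.64 and -6.31 at 1 week and at -9.53, -8.57 and -6.42 at 6 weeks, with the same order of medians and a contained range. Its shift was 1.00 (interval -0.35 to 2.75; exact p = 0.138). Without mouse 2269, the highest of week 1 in both, the shifts of *Col6a1* and *Col6a2* were 1.30 (exact p = 0.0152) and 1.28 (exact p = 0.026), with adjusted p-values of 0.273 and 0.351. Without any other 1 mouse the exact p lay between 0.0649 and 0.180 for *Col6a1* and between 0.0931 and 0.240 for *Col6a2*. Against the panel median the shifts of *Col6a1* and *Col6a2* were 0.39 (exact p = 0.295) and 0.25 (exact p = 0.366).

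*Col6a3* had a shift of 0.65. The fibrillar collagens *Col1a1* and *Col3a1*, the bulk of the dermis and of early scar, had shifts of 0.31 (interval -1.57 to 2.08) and 0.43 (interval -1.55 to 2.47). None of the 5 collagen genes had an exact p below 0.101. The shifts of the 5 genes were above 0, with a median of 0.65, and against the panel median they were above 0 in 3 of 5, with -0.45 for *Col1a1*.

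Among the proteinase genes *Timp2* and *Mmp9* had the largest shifts, in opposite directions. *Timp2*, a tissue inhibitor that also takes part in activating MMP2, lay at -8.19, -6.72 and -4.88 at 1 week and at -6.42, -5.69 and -4.03 at 6 weeks. The 6 mice at 6 weeks stood above the median of week 1, and 1 of them, mouse 401, above its range. The shift was 0.89 (interval -0.43 to 2.58; exact p = 0.181). *Mmp9*, a gelatinase of neutrophils, macrophages and migrating keratinocytes, lay at -15.97, -12.18 and -10.21 at 1 week and at -13.95, -12.90 and -10.75 at 6 weeks. Only 1 of the 6 mice at 6 weeks stood above the median of week 1, and the range was contained in that of week 1. Its shift was -0.55 (interval -2.23 to 2.03; exact p = 0.628), and 0.02 without mice 2269 and 408, an alternative chosen after the data had been seen.

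Of the other proteinase genes, *Mmp2* (0.40), *Timp3* (0.50), *Timp1* (0.39) and *Timp4* (0.10) had shifts above 0, and *Mmp19* had one of -0.10. Shifts were above 0 in 5 of 7 with a median of 0.39, and in 2 of 7 with a median of -0.73 against the panel median. *Timp1*, an inhibitor induced in inflamed tissue, was at -6.04 in mouse 2269 and between -13.20 and -10.15 in the other mice of week 1.

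Genes of vessel growth and stromal growth factors followed. *Fgf1*, a fibroblast growth factor, lay at -10.64, -9.75 and -6.56 at 1 week and at -10.11, -8.26 and -7.78 at 6 weeks. Its range at 6 weeks was contained in that of week 1, and the shift was 1.20 (interval -1.23 to 2.17; exact p = 0.234). Mouse 400 was the highest of week 1 in *Fgf1* and in *Vegfa*, the main driver of new capillaries.

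*Ang1*, taken here as angiopoietin 1, the stabilising ligand of the endothelial TIE2 receptor, had a shift of 1.14 (interval -0.35 to 2.69; exact p = 0.101), and *Ang2*, which destabilises vessels, one of 0.30. *Vegfa* had a shift of 0.77, *Fgf2* 0.76 and *Pdgfa* 0.69, with exact p-values of 0.181, 0.181 and 0.138. *Ctgf*, a matricellular target of TGF-beta, and *Fgfr3*, a fibroblast growth factor receptor of keratinocytes, had shifts of -0.12 and -0.36. Over the 9 genes 7 shifts were above 0 with a median of 0.76, and 4 of 9 with a median of -0.09 against the panel median.

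Adhesion genes showed the smallest list median, 0.21, with 4 of 6 shifts above 0, and -0.39 with 1 of 6 above 0 against the panel median. *Itgb1*, the beta subunit of the collagen-binding and fibronectin-binding integrins, lay at -8.22, -6.46 and -4.84 at 1 week and at -6.94, -5.79 and -5.13 at 6 weeks, a range contained in that of week 1. Its shift was 0.74 (interval -0.83 to 2.16; exact p = 0.445). *Cdh2*, the cadherin of mesenchymal and nerve cells, lay at -15.73, -13.45 and -11.14 at 1 week and at -13.83, -13.49 and -11.30 at 6 weeks. The medians were nearly the same, and the shift was 0.56 (exact p = 0.836), or -0.30 against the panel median. *Cd44*, *Vcam1* and *Icam1* had shifts of -0.07, 0.37 and 0.05.

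*Cdh1* varied widely between mice at 1 week (SD 3.21) and at 6 weeks (SD 3.10). It lay at -16.16, -8.78 and -6.89 at 1 week and at -14.03, -8.99 and -6.90 at 6 weeks, with an interval of the shift from -5.26 to 3.89. The 4 sham mice numbered above 2000 lay between -16.16 and -12.24 and the 9 numbered below 1000 between -10.77 and -6.89, without overlap, in both weeks. It was the only 1 of the 54 genes whose levels did not overlap between the number series in the sham mice, and it was picked out after its values had been seen. In *Fgfr3* the same 4 mice lay between -15.18 and -11.04 and the other 9 between -11.67 and -7.06. The median above 2000 less that below 1000 was -5.84 in *Cdh1*, -3.63 in *Fgfr3*, -3.23 in *Arg1* and 3.44 in *Il10*. In the mesh groups mice of both number series overlapped in *Cdh1* in P at 1 week, P at 6 weeks and in P+eMSC at both weeks. The 4 mice were spread evenly over the weeks, and what the number series stand for was not given in the sources used here.

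Chemokine genes varied widely within a week, with a median SD at 1 week of 2.43 in the CC list and 2.45 in the CXC list, beside 1.93 over the 54 genes. The same value was 2.60 in the cytokine list and 2.29 in the chemokine receptors. *Ccl12*, a monocyte attractant, lay at -13.57, -11.75 and -6.62 at 1 week and at -12.39, -11.00 and -7.95 at 6 weeks. Mouse 2269 stood apart at 1 week, mouse 408 was the highest at 6 weeks, and the shift was 0.90 (interval -1.17 to 3.27; exact p = 0.366). *Ccl11*, eotaxin, which draws eosinophils, lay at -8.81, -7.60 and -6.29 at 1 week and at -7.72, -6.91 and -4.89 at 6 weeks. Mouse 401 at 6 weeks exceeded the range of week 1, and the shift was 0.80 (interval -0.45 to 2.11; exact p = 0.295). The monocyte attractants *Ccl2* and *Ccl7* had shifts of 0.51 and 0.48, and *Ccl3*, *Ccl5* and *Ccl4*, ligands made by activated macrophages among other cells, had 0.20, 0.13 and -0.63. In this list 6 of 7 shifts were above 0 with a median of 0.48, and 2 of 7 with a median of -0.20 against the panel median.

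*Cxcl10*, an interferon-induced chemokine, had the largest shift of the 54 genes with all 13 mice. It lay at -15.17, -13.01 and -7.68 at 1 week and at -13.05, -11.84 and -6.70 at 6 weeks, and the highest mouse of each week, 2269 and 408, stood well above the others. The shift was 1.45 (interval -1.43 to 4.67), or 2.73-fold, with an exact p of 0.234. It was 1.84 without mouse 2269 (exact p = 0.0931) and 1.45 without mice 2269 and 408. Without mouse 408 it was 0.46, below that of *Tgfb2* (1.33). The shift of *Cxcl10* was 0.72 without mouse 120 or mouse 2354, and 0.56 against the panel median. *Cxcl12*, a homeostatic chemokine of dermal fibroblasts, lay at -7.97, -6.33 and -3.25 at 1 week and at -6.78, -6.01 and -3.98 at 6 weeks, a range contained in that of week 1. Its shift was 0.77 (exact p = 0.445). *Cxcl9*, also induced by interferon, had a shift of 0.64. The 5 shifts of the list were above 0 with a median of 0.76, and 3 of 5 with a median of 0.04 against the panel median.

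*Cxcl1* and *Cxcl2*, which attract neutrophils, had shifts of 0.76 and 0.41. In *Cxcl2* mouse 2269 was at -9.81 and mouse 400 at -12.52, and the lowest mouse of week 1 was at -21.06. Its SD of 4.37 at 1 week was the largest of the 54 genes, and at 6 weeks it was 2.38. In *Cxcl1* the same mice were at -10.16 and -12.67, and the lowest of week 1 was at -17.74. The SDs were 2.73 at 1 week and 1.03 at 6 weeks.

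The sequences before the starts of *Cxcl1* and *Cxcl2* are shown because these neighbouring genes had the same highest mice at 1 week, 2269 and 400, with the widest spread of the panel in *Cxcl2*. These mice were also the highest of week 1 in genes elsewhere in the genome, among them *Il6*, *Ccl3* and *Ccr1*. The sequences are the 250 bases upstream of the start in RefSeq, at chr5:90890995-90891244 for *Cxcl1* and at chr5:90903649-90903898 for *Cxcl2*, both on the plus strand of GRCm38.p6. Capitals mark matches on either strand to GGGAATT, the first letters of a common form of the kappa B site.
Cxcl1: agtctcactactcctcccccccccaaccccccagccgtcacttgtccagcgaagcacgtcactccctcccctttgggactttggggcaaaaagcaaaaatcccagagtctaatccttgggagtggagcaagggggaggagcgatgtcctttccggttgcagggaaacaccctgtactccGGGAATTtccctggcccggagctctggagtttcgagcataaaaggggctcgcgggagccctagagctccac
Cxcl2: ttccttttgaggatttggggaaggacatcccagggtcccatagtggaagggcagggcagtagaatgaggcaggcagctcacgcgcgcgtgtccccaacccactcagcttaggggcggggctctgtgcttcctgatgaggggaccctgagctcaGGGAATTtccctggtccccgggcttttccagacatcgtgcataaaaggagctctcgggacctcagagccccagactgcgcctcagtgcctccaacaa
Each holds 1 match, which ends 64 bases before the start in *Cxcl1* and 90 in *Cxcl2*. Among the 32 target genes with an entry in the promoter table the letters were found in 4, which also include *Cxcl9* and *Il1b*, and in 3.08% of its 32851 windows of the same length. The target genes were counted once each and the background by window, so these counts are not in the same unit. The match says nothing about which factor was bound in these mice.

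Chemokine receptors mark the leukocytes that the ligands draw. *Ccr1*, a receptor of CCL3 and CCL5 on myeloid cells, lay at -14.96, -14.61 and -8.87 at 1 week and at -14.71, -12.73 and -11.03 at 6 weeks, a range contained in that of week 1. The shift was 1.11 (interval -2.15 to 2.35; exact p = 0.295). *Ccr2*, the CCL2 receptor of inflammatory monocytes, lay at -14.38, -12.86 and -7.38 at 1 week and at -12.83, -12.10 and -9.77 at 6 weeks. The 6 mice at 6 weeks stood above the median of week 1 and inside its range, with a shift of 0.76 (interval -1.26 to 3.10; exact p = 0.366). *Ccr7*, found on migrating dendritic cells, had a shift of 0.23. The median of the 3 genes was 0.76, and 0.04 with 2 of 3 above 0 against the panel median.

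Cytokine genes held the largest shift below 0. *Il1b*, an early inflammatory cytokine, lay at -17.11, -15.77 and -8.83 at 1 week and at -18.79, -16.25 and -12.60 at 6 weeks. At 6 weeks 2 mice lay below the range of week 1 and 2 above its median, and the shift was -0.90 (interval -3.77 to 3.18; exact p = 0.731). It was 0.08 without mouse 2269 and 0.58 without mouse 2277 or without mouse 2346. *Il6*, which induces the acute phase response, lay at -18.91, -16.80 and -10.01 at 1 week and at -16.97, -15.45 and -14.90 at 6 weeks. Mice 2269 and 400 of week 1 lay above each mouse of week 6, and the other 5 lay below 4 of the 6 mice at 6 weeks, with a shift of 1.37 (interval -4.15 to 3.32; exact p = 0.445). *Tnfa*, *Il4ra* and *Il10* had shifts of -0.19, 0.34 and 0.50, with 5 mice at 6 weeks for *Il10*. The 5 genes had 3 shifts above 0 and a median of 0.34, and 1 of 5 above 0 with a median of -0.46 against the panel median.

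Genes used as signs of macrophage state overlapped between the weeks. *Nos2*, the inducible nitric oxide synthase, lay at -15.99, -14.21 and -10.79 at 1 week and at -14.73, -13.45 and -11.26 at 6 weeks, a contained range with a shift of 0.61 (exact p = 0.445). *Mrc1*, the mannose receptor of tissue macrophages, lay at -9.89, -7.41 and -3.73 at 1 week and at -8.16, -6.39 and -4.58 at 6 weeks, also contained, with a shift of 0.85 (exact p = 0.534). Over the list 2 of 3 shifts were above 0 with a median of 0.61, and 0 of 3 with a median of -0.06 against the panel median. *Arg1*, arginase 1, had a shift of -0.59, and its spread at 6 weeks (SD 3.28) was larger than at 1 week (SD 2.47), since mouse 401 was at -8.79 and mouse 2277 at -17.50.

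**Figure D2:**
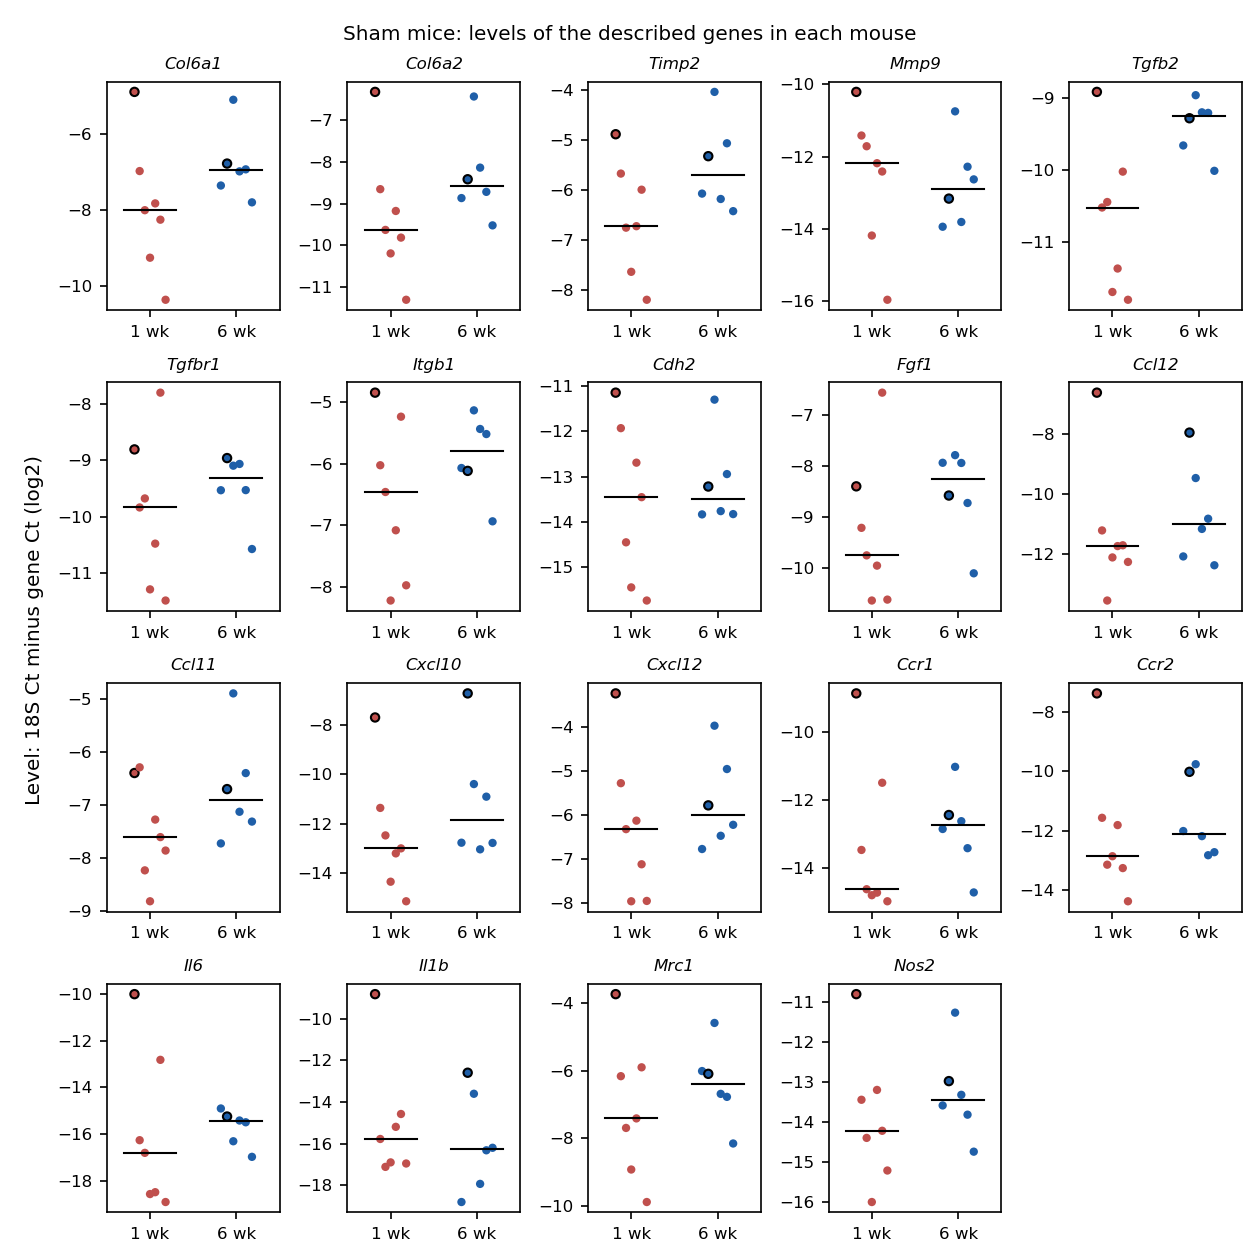
Levels of 19 genes with the largest shifts of their lists in each sham mouse (log2, 18S Ct minus gene Ct; points, 7 mice at 1 week in red and 6 at 6 weeks in blue; bars, medians; each panel has its own axis). Black outlines mark mouse 2269 at 1 week and mouse 408 at 6 weeks, and the weeks overlap in each panel.

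Much of the spread was shared across genes by the same mice. The mean level over the 53 genes with a Ct in each sham mouse was -10.70 ± 1.60 (SD, n = 7) at 1 week and -10.34 ± 1.00 (SD, n = 6) at 6 weeks, a shift of 0.68 (interval -1.25 to 2.13; exact two-sided Mann-Whitney p = 0.836). The shift was below 0, at -0.060 or -0.056, without mouse 120, 2354, 408 or 401. It was 0.98 within the mice numbered below 1000 and -0.94 within those above 2000. Over the 13 mice this mean spanned 4.65, against 1.18 cycles for the Ct of 18S. Mouse 2269 was the highest of week 1 in 41 of the 53 genes, and mice 2354 and 120 were the lowest in 26 and 18. At 6 weeks mouse 401 was the highest in 33 genes and mouse 408 in 15, and mouse 123 was the lowest in 28.

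The excess of mouse 2269 was not even over the lists. Against the median of the 13 sham mice its mean level was higher by 4.98 to 5.34 in the chemokine, receptor and cytokine lists, by 3.23 in the collagens, by 1.18 in the transforming growth factor beta genes and by 0.54 in the growth factors. At 6 weeks mouse 408 was 4.50 higher in the CC chemokines and 3.52 in the CXC chemokines, and 0.85 in the collagens. Mouse 401 was more even, from 1.03 in the growth factors to 2.92 in the macrophage genes. What set these mice apart was not tested.

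**Figure D3:**
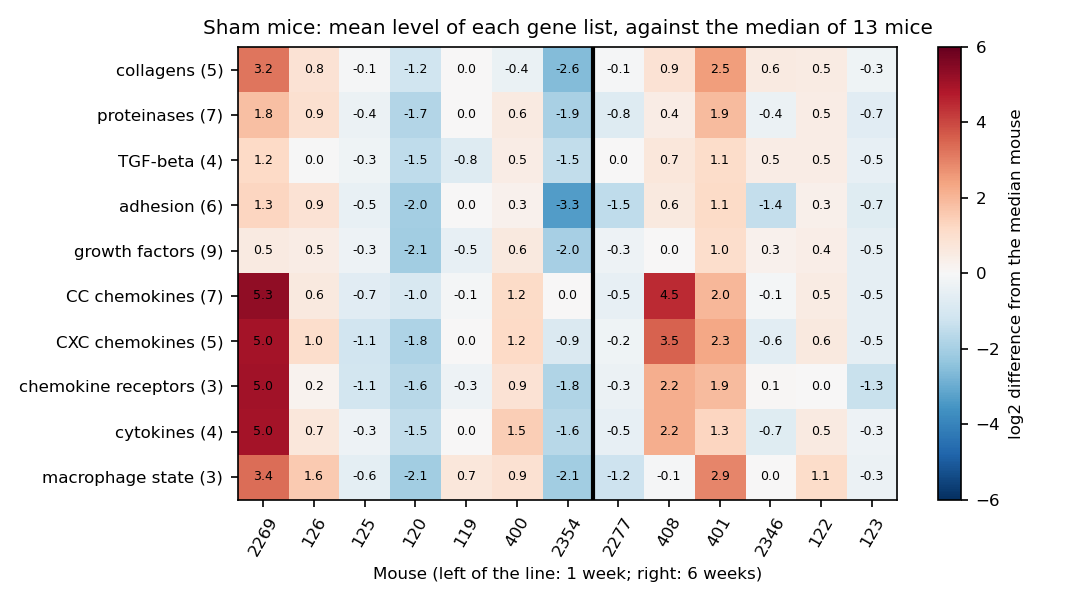
Mean level of each gene list in each sham mouse (columns, 7 mice at 1 week and then 6 at 6 weeks), as the log2 difference from the median of the 13 mice, with the number of genes with a Ct in each mouse in brackets. Mouse 2269 stands 4.98 to 5.34 above the median in the chemokine, receptor and cytokine lists, and mouse 408 stands 4.50 above it in the CC chemokines.

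The spread between mice was larger at 1 week in 48 of the 54 genes. The median SD was 1.93 at 1 week and 1.11 at 6 weeks, and no test was made of this difference. Without mouse 2269 the SD was larger at 1 week in 33 genes, with a median of 1.34 beside 1.11. With the panel median as the reference the median SDs were 1.04 and 0.93. The SD was larger at 6 weeks in 6 genes, 3 of them CC chemokines, and *Arg1* and *Tnfa* were among the others.

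**Figure D4:**
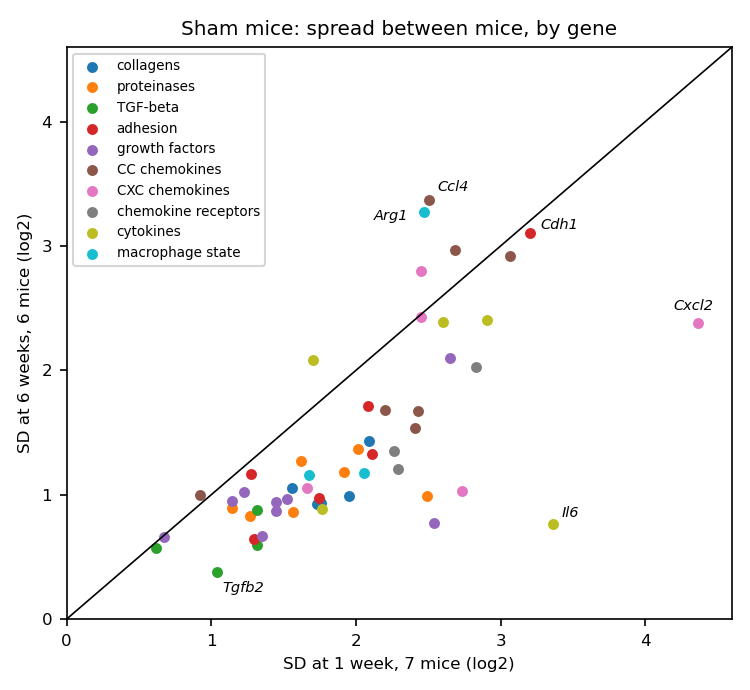
SD between mice of each target gene at 1 week (horizontal, 7 mice) and at 6 weeks (vertical, 6 mice), on the log2 scale and coloured by list. Points under the diagonal, 48 of 54, vary more at 1 week, and *Cxcl2* lies farthest to the right at 4.37.

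Differences between 2 genes in the same mouse do not depend on 18S. Of 8 such pairs 0 were called after Benjamini-Hochberg adjustment and 1 had an unadjusted exact p below 0.05, while 2 were at or under the unadjusted threshold of the study. The level of *Ang2* less that of *Ang1* was -2.84, -2.55 and -1.63 (lowest, median, highest) at 1 week and -3.71, -3.09 and -2.39 at 6 weeks. The weeks overlapped, with a shift of -0.80 (interval -1.50 to -0.15; exact p = 0.0221, adjusted p = 0.177). Without mouse 123 of week 6 the shift was -0.94 and this pair was called.

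*Mmp2* less *Timp2*, a proteinase and its inhibitor, was -1.39, -0.56 and 0.05 at 1 week and -1.42, -1.07 and -0.84 at 6 weeks. Only 2 mice of week 1 fell inside the range of week 6, 1 of them at -0.92, and the shift was -0.50 (interval -0.96 to 0.003; exact p = 0.0513, adjusted p = 0.205). The pair of *Ccr7* and *Mrc1* had a shift of -0.998 (exact p = 0.138) and that of *Nos2* and *Arg1* one of 1.25 (exact p = 0.445). The other 4 pairs had shifts between -0.28 and 0.17.

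**Figure D5:**
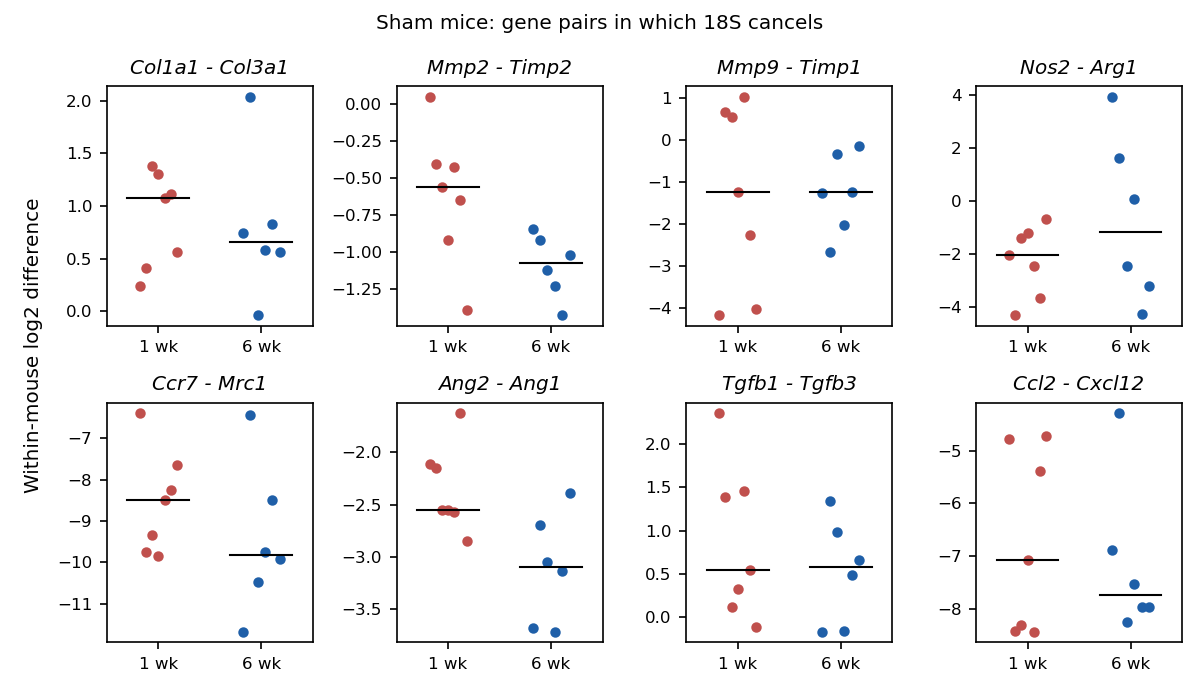
Difference between the levels of 2 genes in the same mouse (log2), for 8 pairs in 7 sham mice at 1 week (red) and 6 at 6 weeks (blue), with bars at the medians and its own axis for each pair. The weeks overlap in each pair, and the medians of *Ang2* less *Ang1* are -2.55 and -3.09.

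The change from 1 to 6 weeks in the sham mice was also set against that in the mesh groups, in 1 limma model of the 41 mice. The median change over the 54 genes was 0.42 in the sham mice, -1.05 in P and 0.91 in P+eMSC, and against the panel median these were -0.22, -0.38 and 0.059. Without mouse 2269 that of the sham mice was 0.89, and without mouse 52 that of P was -0.28. Without 1 other mouse of P at 6 weeks that of P was -1.26. Both contrasts use the same sham mice. The change in P less that in the sham mice was below 0 in 50 of 54 genes, with a median of -1.35 and a median standard error of 1.56. By limma with Benjamini-Hochberg adjustment 0 genes (0%) were called, with a lowest adjusted p of 0.736, and none had a p below 0.05 before adjustment. Without mouse 52 of P at 6 weeks the median was -0.76, and with the panel median as the reference -0.18. Without 1 other mouse of P at 6 weeks the median was -1.75. With 1 sham mouse left out it lay between -1.80 (without mouse 2269) and -0.97 (without mouse 120). Without mouse 2269, 1 gene had a limma p below 0.05 before adjustment and 0 were called. In P at 6 weeks 32 of 432 values were undetected and left out. With undetected values set below the lowest value of the gene the median was -1.59. For P+eMSC less the sham mice 42 of 54 were above 0 with a median of 0.38, 0 genes (0%) were called, with a lowest adjusted p of 0.999, and none had a p below 0.05 before adjustment. With 1 sham mouse left out that median lay between -0.0090 (without mouse 2269, with 26 genes above 0 and 28 below) and 0.72 (without mouse 2354). For *Tgfb2* the difference was -0.90 (interval -2.85 to 1.04) with P and -0.23 (interval -2.13 to 1.68) with P+eMSC.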

How the data were processed

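Skin RNA of 41 female NSG mice was assayed by TaqMan qPCR on a Fluidigm chip, from 100 ng of RNA after 14 cycles of preamplification. The Ct values were deposited by the authors without normalization, with 999 or no value where a transcript was undetected, and were used as deposited apart from leaving these out. The second deposited table, of fold ratios calibrated to the sham mice of each week, was not used. Groups were taken from the sample titles.

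Levels (18S Ct minus gene Ct) of genes with at least 4 values a week were compared by exact two-sided Mann-Whitney U tests over all 1716 assignments of the mice, with Hodges-Lehmann shifts and Benjamini-Hochberg adjustment over the 54 genes, called at an adjusted p below 0.05. The study's methods use the same test. The week changes were compared between treatments with limma 3.58.1 in R 4.3.3, and the rest was computed in Python 3.11.15 with scipy 1.17.1. Both procedures were tested on simulated data. Ct values carry no read depth. The number of mice limits the precision, and p-values set the differences against the spread between these mice.

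The alternatives were the panel median as reference, undetected values set 0.01 below the lowest value of the gene, a median Ct of 25 or less, a permutation test of the mean, limma, permutation within animal number series, an adjusted p of 0.1, the unadjusted threshold and leaving out each sham mouse. Of the mesh mice only mouse 52 and 1 other of P at 6 weeks were left out, 1 at a time. No mouse of P at 1 week or of P+eMSC was left out. The 2 genes of each list with the largest absolute shift are described in full, apart from 1 gene that is not reported here by itself and is kept in the counts. The members and gene lists were chosen with earlier results of these data known. Symbols of 50 of the 54 genes matched RefSeq directly and 4 through a synonym, and promoter sequences were read from RefSeq (GRCm38.p6).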

Additional observations from a re-analysis of the deposited data

Results flagged for a closer look

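Single mice stood apart from the rest of their week in 13 of 108 combinations of gene and week and in 1 gene pair, by the gap to the nearest mouse as a share of the range. Chance gives about 1 in 20, or 5%, and genes of the same mouse are not independent.

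At 1 week mouse 2269 was the highest in 7 of these. Its level was -6.04 in *Timp1*, -8.02 in *Ccl2*, -10.48 in *Ccl4*, -8.02 in *Ccl7*, -6.62 in *Ccl12*, -7.38 in *Ccr2* and -8.83 in *Il1b*. The other mice of the week lay between -15.04 and -12.52 in *Ccl2* and between -17.11 and -14.58 in *Il1b*. Also at 1 week, *Vegfa* was at -4.35 in mouse 400, with the others between -8.95 and -7.05.

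At 6 weeks mouse 408 was the highest in *Ccl4* at -9.99, with the others between -19.20 and -16.28, and in *Cxcl2* at -13.01. Its difference of *Ccl2* less *Cxcl12* was -4.30, with the others between -8.25 and -6.88. Mouse 401 was the highest in *Cdh2* at -11.30 and in *Il4ra* at -5.87, and mouse 123 was the lowest in *Tgfbr1* at -10.57. The sources of these differences were not tested.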

How the results depend on the processing

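The 0 genes called in each direction stayed at 0 under each alternative except the unadjusted threshold of the study, at which 2 were called higher and 0 lower. Unadjusted p-values below 0.05 were found in 0 to 5 genes when 1 mouse was left out, the most without mouse 2269, and in 3 without mice 2269 and 408, which was chosen after seeing the data. The median shift of 0.51 lay between 0.33 and 0.84 with 1 mouse left out and was -0.19 with the panel median as reference.

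The shift of the panel mean level, 0.68, lay between -0.060 and 0.98 with 1 mouse left out, and was below 0 without mouse 120, 2354, 408 or 401. The pairs called numbered 0 to 1, with 1 without mouse 123. With the panel median as reference 20 of the 54 shifts were above 0, against 44 with 18S, and without mice 2269 and 408 it was 45. Among the genes described in full, directions changed with the panel median in *Tgfbr1* (-0.054), *Cdh2* (-0.30), *Nos2* (-0.061) and *Mrc1* (-0.029), and without mice 2269 and 408 in *Mmp9* (0.018). With 1 mouse left out the shift ranged from -0.25 to 0.66 in *Cdh2* and from -1.03 to 0.58 in *Il1b*. In the pairs it ranged from -0.45 to 0.020 for *Col1a1* and *Col3a1*, from -0.81 to 0.56 for *Mmp9* and *Timp1* and from -0.88 to 0.34 for *Ccl2* and *Cxcl12*. By the difference of means these last pairs were at 0.067 and -0.42. The cause of these changes was not tested.

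No paired analysis was possible because each mouse belonged to 1 week and no number was shared between groups. *Gapdh* as the reference was not run. The number of mice limits each result, and with 1 Ct per gene and mouse the assay error was not measured.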
